A study of Mus musculus with 908 samples.

Results

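A set of 10 genes that restrain the cell cycle or regulate p53 was followed among the 46517 genes of the deposited tables: Cdkn1a, Cdkn1b, Cdkn1c, Cdkn2a, Cdkn2b, Cdkn2c, Trp53, Mdm2, Sesn2 and Gadd45a. They were chosen by name, and their levels were set beside detection of the proliferation marker Mki67 in the same cells. The cells came from mouse skin squamous cell carcinomas driven by an inducible Hras G12V transgene. Each cell was sorted into its own well and sequenced by the full-length Smart-seq2 method. In all gates, cells with surface CD31, CD45, CD117 or CD140a were excluded, and the mice were at postnatal days 60 to 90, with the sex given as mixed. Cells after adoptive cell transfer (ACT, an infusion of immune cells) were from TRE-OVA;TRE-HrasG12V:PGK-rtTA3P2AmCherry mice. They were sorted for mCherry alone, with no selection on integrin α6, CD34 or CD44. The other gates were from TRE-HrasG12V;SBE-mCherry-PGK-rtTA3 mice before therapy, in which mCherry reports TGF-beta signalling through a SMAD-binding element. Reporter-positive cells had integrin α6, mCherry, CD34 and CD44. CD44+ reporter-negative cells had integrin α6 and CD44 but neither mCherry nor CD34. CD44-negative α6+ cells had integrin α6 alone of these markers, and α6-negative cells had none of them. Since strain and gate differ together with therapy, the effects of these on cells after transfer cannot be told apart.

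Progress from G1 to S phase needs cyclin-dependent kinases to phosphorylate the RB protein. CIP/KIP inhibitors (Cdkn1a, Cdkn1b and Cdkn1c) bind cyclin-kinase complexes broadly, and INK4 inhibitors (Cdkn2a, Cdkn2b and Cdkn2c) bind the CDK4 and CDK6 kinases. The transcription factor p53, encoded by Trp53, turns on Cdkn1a, Mdm2, Sesn2 and Gadd45a after DNA damage and other stress, and the Mdm2 protein marks p53 for degradation. In keratinocytes TGF-beta signalling is a known inducer of Cdkn1a and Cdkn2b.

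A library was kept when at least 2000 genes reached 1 TPM (a gene's share of a library's transcripts, corrected for gene length). This kept 696 libraries, and plates that repeat other wells were then left out. Used were 87 and 90 cells after transfer on plates OT2 and OT_B, on plates CSC1 and CSC2 73 and 32 cells with the reporter, a further 15 that were CD44+ but reporter-negative, 91 cells that were α6+ without CD44, and 43 α6-negative cells. The labels name no animal, so each gate was 1 sample, and no p-value was computed. Intervals are exact Clopper-Pearson 95% intervals and cover counting error only. TPM keeps no read depth. The median number of genes at 1 TPM stands in for it, at 6657 after transfer, 7760 in reporter-positive cells, 7222 in CD44+ reporter-negative cells, 6810 in CD44-negative α6+ cells and 5521 in α6-negative cells. All libraries after transfer, all reporter-positive and all CD44-negative α6+ libraries had keratinocyte genes as their highest marker list. So did 12 of 15 CD44+ and 26 of 43 α6-negative libraries, and the rest of these had fibroblast, pericyte or muscle genes highest. Transcripts of Y-linked genes without Xist marked all but 7 libraries after transfer and all but 6 reporter-positive libraries, and the exceptions had neither. Of 15 CD44+ libraries 12 had Xist alone. Of 91 CD44-negative α6+ libraries 42 had Xist alone and 44 Y-linked transcripts alone. How much of a difference between gates comes from different animals was not tested.

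By the correlation of whole profiles, many cells had been sequenced more than once under other plate names. A second library was found for 70.1% of cells after transfer, 92.4% of reporter-positive cells and all 15 CD44+ reporter-negative cells. For the reporter-positive and CD44+ gates, those second libraries are on plates labelled as after transfer, named OT_C and OT_D, and which label is right cannot be told apart. They were left out here, and values with every library as labelled are given beside the results they change. The repeats also measure how well a transcript is found again. Cdkn1a was found again in every cell after transfer and in 95 of 95 reporter-positive cells that had it, with Spearman rho between the paired TPM of 0.94 and 0.95. Cdkn2a was found again in 25 of 37 cells after transfer (67.6%) and 70 of 77 reporter-positive cells (90.9%), and Cdkn2c in 9 of 18 and 5 of 9. A single library without Cdkn2a or Cdkn2c therefore does not show that the cell lacked the transcript.

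Cdkn1a lies on chromosome 17 at 29090976 to 29100727 of mm10 (plus strand). Cdkn2a and Cdkn2b are neighbours on chromosome 4, at 89274471 to 89294653 and 89306299 to 89311039 (minus strand). Promoter windows are given for these 3 inhibitors because each was over 2-fold higher in reporter-positive cells than in both reporter-negative α6+ gates, and because Cdkn2a has 2 starts whose products differ. The upstream start gives p19Arf, which binds Mdm2, and the downstream start gives p16Ink4a. The TPM of Cdkn2a sums both. Each window runs from 250 bases before to 50 bases after an annotated start, from RefSeq on GRCm38.p6 (mm10), at chr17:29090729-29091028 (plus) for Cdkn1a, chr4:89310983-89311282 (minus) for Cdkn2b, chr4:89294570-89294869 (minus) for the upstream Cdkn2a start and chr4:89282143-89282442 (minus) for the downstream one. Capitals mark matches to the p53 half-site consensus in the Cdkn1a window and the GC box GGGCGG, on either strand, in the other windows.
Cdkn1a: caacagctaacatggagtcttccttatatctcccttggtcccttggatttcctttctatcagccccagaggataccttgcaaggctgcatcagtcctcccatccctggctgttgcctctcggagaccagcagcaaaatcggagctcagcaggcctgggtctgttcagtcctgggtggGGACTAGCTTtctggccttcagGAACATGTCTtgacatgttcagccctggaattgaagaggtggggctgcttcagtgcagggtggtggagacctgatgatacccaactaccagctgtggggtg
Cdkn2b: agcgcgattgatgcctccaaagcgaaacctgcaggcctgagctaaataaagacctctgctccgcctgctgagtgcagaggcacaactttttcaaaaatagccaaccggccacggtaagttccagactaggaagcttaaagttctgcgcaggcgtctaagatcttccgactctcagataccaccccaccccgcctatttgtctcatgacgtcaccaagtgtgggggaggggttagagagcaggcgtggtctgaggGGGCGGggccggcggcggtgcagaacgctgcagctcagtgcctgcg
Cdkn2a upstream start: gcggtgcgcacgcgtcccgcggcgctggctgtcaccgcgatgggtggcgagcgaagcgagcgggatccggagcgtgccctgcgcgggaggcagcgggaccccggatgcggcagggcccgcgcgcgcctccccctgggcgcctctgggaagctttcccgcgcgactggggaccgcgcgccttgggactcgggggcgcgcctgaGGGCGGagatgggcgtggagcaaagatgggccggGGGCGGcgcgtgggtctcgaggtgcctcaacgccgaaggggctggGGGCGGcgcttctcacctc
Cdkn2a downstream start: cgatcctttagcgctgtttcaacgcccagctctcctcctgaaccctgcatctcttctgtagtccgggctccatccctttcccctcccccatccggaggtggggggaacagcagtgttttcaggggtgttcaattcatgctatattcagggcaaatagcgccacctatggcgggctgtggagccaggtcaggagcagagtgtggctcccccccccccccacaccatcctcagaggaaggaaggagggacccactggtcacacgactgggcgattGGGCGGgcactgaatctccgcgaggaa

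The Cdkn1a window, at the more distal of its 2 starts in the table, held 2 p53 half-site matches and no GC box. The window at its other start (chr17:29093519-29093818, not printed) held 2 GC boxes and 0 half-site matches, with 64.7% of bases G or C. At least 1 half-site match was present in 8.36% of the 32851 promoter windows of the mouse table. GC boxes numbered 1 in the Cdkn2b window, 3 at the upstream Cdkn2a start and 1 at the downstream start, and 35.7% of all windows held at least 1. The 5-base SMAD box CAGAC, searched on both strands, occurred 1 time in the Cdkn1a window, 2 times in the Cdkn2b window and not in either Cdkn2a window, against 49.6% of all windows with at least 1. The windows of Cdkn2a differed in base composition, with 77% of bases G or C at the upstream start and 60.3% at the downstream one. These are letter matches only. Of the 10 genes, 9 had windows in the table, 12 windows in all.

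Cdkn1a, which encodes the p53-inducible inhibitor p21, had the highest mean level of the set in every gate. With Trp53 it was also the most widely detected after transfer, in reporter-positive cells and in CD44-negative α6+ cells. After transfer Cdkn1a ran from 0 TPM through a median of 108.8 TPM to a highest value of 906 TPM. The reporter-positive cells ran from 0 through 213.2 to 1549 TPM. The gates without the reporter were lower: the CD44+ cells ran from 0 through 49.9 to 200.1 TPM, the CD44-negative α6+ cells from 0 through 42.9 to 452.1 TPM, and the α6-negative cells from 0 through 80.6 to 497.6 TPM. All gates overlapped. The share of cells at 1 TPM or more was 98.3% after transfer (95.1 to 99.6%), 97.1% among reporter-positive cells (91.9 to 99.4%) and 87.9% among CD44-negative α6+ cells (79.4 to 93.8%). On the ratio of mean TPM plus 1, Cdkn1a was 3.86-fold higher in reporter-positive than in CD44+ cells and 3.66-fold higher than in CD44-negative α6+ cells, and 2.2-fold higher after transfer than in CD44-negative α6+ cells. The 2 reporter-positive plates were alike, at means of 272.5 TPM on CSC1 and 263.6 TPM on CSC2. The plates after transfer differed more, at 197.9 TPM on OT2 and 126.4 TPM on OT_B.

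**Figure D1:**
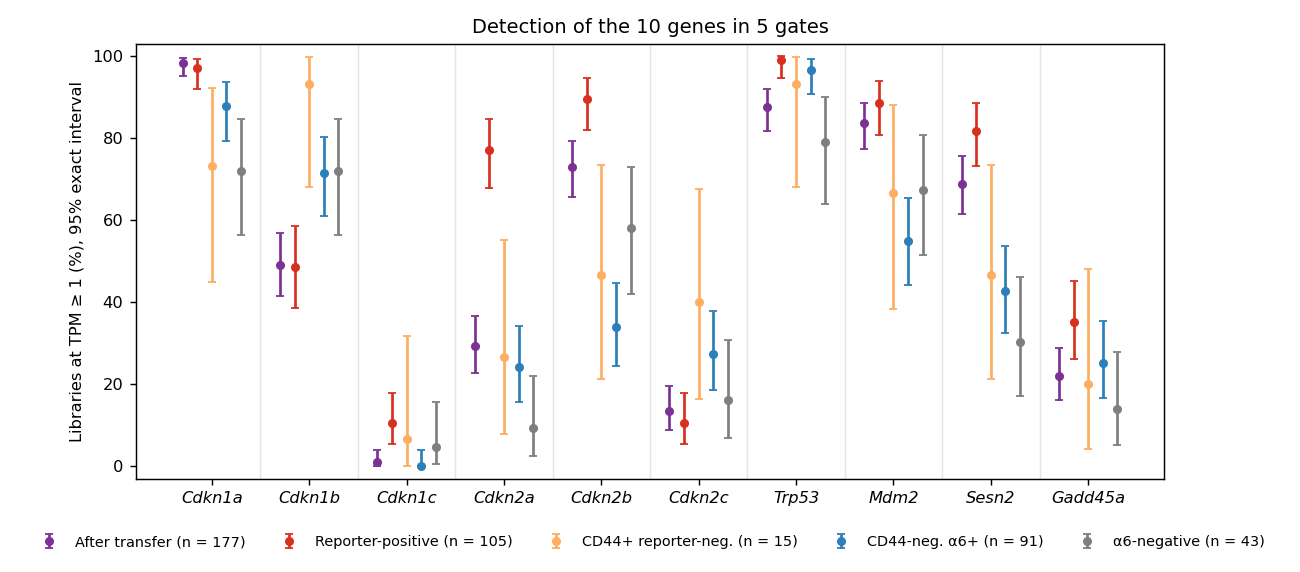
Share of libraries with each of the 10 genes at 1 TPM or more (vertical axis, percent) in the 5 gates, with exact 95% intervals as bars. Cdkn1a is near 100% after transfer and in reporter-positive cells, and Cdkn2a reaches 77.1% only in reporter-positive cells.

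Cdkn1b, the gene of the inhibitor p27, ran the other way. It was detected in 49.2% of cells after transfer and 48.6% of reporter-positive cells, against 93.3% of CD44+ cells (14 of 15), 71.4% of CD44-negative α6+ cells and 72.1% of α6-negative cells. Mean levels were 3.28 TPM after transfer, 2.68 TPM in reporter-positive cells, 7.90 TPM in CD44+ cells, 5.04 TPM in CD44-negative α6+ cells and 11.1 TPM in α6-negative cells. The first pair of gates in that order did not differ beyond counting error. Cdkn1b was thus the only one of the 10 that was at least 2-fold lower in reporter-positive than in CD44+ cells (log2 ratio -1.27). It fell short of that limit without plate CSC1 (-0.80). Cdkn1c, the imprinted gene of the inhibitor p57, was at 1 TPM or more in 2 cells after transfer (1.13%), 11 reporter-positive cells (10.5%), 1 of 15 CD44+ cells and 2 of 43 α6-negative cells. It was in 0 of 91 CD44-negative α6+ cells, which allows a share of up to 3.297% by the limit of 3 counts and 3.97% by the exact interval. Both limit cells with a detected transcript, and Cdkn1c was found again in the second library of 6 of 11 reporter-positive cells. Of its exonic bases, 30.7% overlap the gene Gm44732 on the other strand, and the libraries do not record strand.

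Cdkn2a set the reporter-positive gate apart in most of its cells. After transfer Cdkn2a ran from 0 TPM through a median of 0 to 52.8 TPM. In reporter-positive cells it ran from 0 through 8.0 to 124.3 TPM, with quartiles at 2.14 and 25.04 TPM. The medians were 0 in the other gates, whose highest cells reached 10.5 TPM (CD44+), 63.9 TPM (CD44-negative α6+) and 70.7 TPM (α6-negative). Detection was 77.1% among reporter-positive cells (67.9 to 84.8%), against 26.7% of CD44+ cells (7.79 to 55.1%), 24.2% of CD44-negative α6+ cells (15.8 to 34.3%) and 9.30% of α6-negative cells (2.59 to 22.1%). After transfer the share was 29.4% (22.8 to 36.7%), against the same 77.1% of reporter-positive cells. The intervals of the reporter-positive gate overlapped with none of the others, and those of the CD44+, CD44-negative α6+ and after-transfer gates overlapped with each other. Detection differed with depth, but among libraries of 6000 to 8000 genes it was still 79.3% in reporter-positive cells (46 of 58) against 27.5% in CD44-negative α6+ cells (19 of 69). In the same range it was 32.3% after transfer. In mean level Cdkn2a was 7.19-fold higher in reporter-positive than in CD44+ cells and 5.22-fold higher than in CD44-negative α6+ cells. It was 4.34-fold lower after transfer than in reporter-positive cells.

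Cdkn2b, which encodes p15, was also highest in reporter-positive cells and was present more widely. Its levels after transfer ran from 0 through a median of 5.38 to 120.2 TPM. In reporter-positive cells they ran from 0 through 19.2 TPM to a 90th percentile of 63.5 TPM. The CD44+ cells ran from 0 through 0.96 to 22.9 TPM, the CD44-negative α6+ cells from 0 through 0 to 46.3 TPM, and the α6-negative cells from 0 through 4.18 to 96.2 TPM. Detection was 72.9% after transfer (65.7 to 79.3%), 89.5% among reporter-positive cells (82 to 94.7%), 46.7% among CD44+ cells (21.3 to 73.4%), 34.1% among CD44-negative α6+ cells (24.5 to 44.7%) and 58.1% among α6-negative cells (42.1 to 73%). The mean in reporter-positive cells was 4.68-fold higher than in CD44+ cells and 5.61-fold higher than in CD44-negative α6+ cells. After transfer it was 2.58-fold lower than in reporter-positive cells and 2.17-fold higher than in CD44-negative α6+ cells. Cells after transfer therefore lay between the 2 gates for Cdkn2b, while for Cdkn2a their share was close to that of CD44-negative α6+ cells. The log2 ratio of mean Cdkn2a after transfer over CD44-negative α6+ cells was 0.27, but 1.14 with every library as labelled. Both neighbours were found in the same cell in 79 reporter-positive cells, where 2 had Cdkn2a alone, 15 Cdkn2b alone and 9 neither. After transfer 43 cells had both, 9 Cdkn2a alone, 86 Cdkn2b alone and 39 neither. In the CD44-negative α6+ gate 14 of 91 had both and 52 neither.

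**Figure D2:**
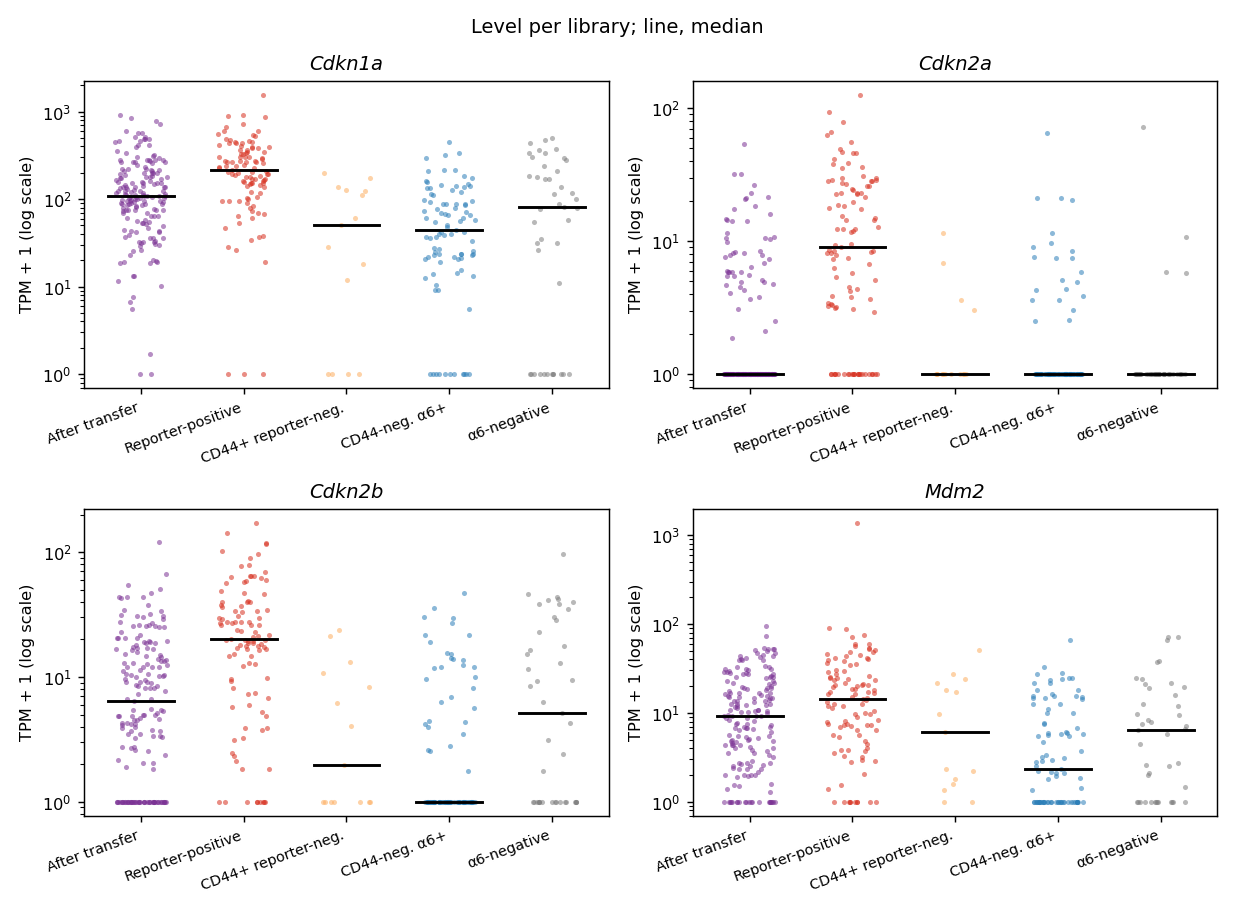
TPM plus 1 of Cdkn1a, Cdkn2a, Cdkn2b and Mdm2 in every used library (log axis, 1 point per library), by gate, with the median as a line. Reporter-positive medians are 213.2, 8.0, 19.2 and 13.5 TPM, and 1 reporter-positive library stands far above the rest for Mdm2 at 1378 TPM.

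Cdkn2c, which encodes p18, was rare and did not share that order. It was detected in 13.6% of cells after transfer and 10.5% of reporter-positive cells, against 40% of CD44+ cells, 27.5% of CD44-negative α6+ cells and 16.3% of α6-negative cells. Means were between 0.611 and 2.22 TPM, and no comparison of gates reached 2-fold. In the CD44+ gate Cdkn2c was in 3 of 12 keratinocyte-led libraries (25%, mean 0.396 TPM). It was also in 1 of 1 fibroblast-led library and 2 of 2 pericyte- or muscle-led ones. The log2 ratio of reporter-positive over CD44+ cells was -0.94, and 0.26 with keratinocyte-led libraries alone.

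Trp53 itself differed little between the gates before therapy and had its lowest mean after transfer. It ran from 0 through a median of 18.1 to 182.4 TPM after transfer, from 0 through 35.4 to 105.7 TPM in reporter-positive cells, from 0 through 28.01 to 72.1 TPM in CD44+ cells and from 0 through 40.3 to 104.7 TPM in CD44-negative α6+ cells. The ranges overlapped widely. Mean levels were 22.6, 41.5, 33.1 and 43.01 TPM in that order, and 36.7 TPM in α6-negative cells. Trp53 shares 8.66% of its 35-base words with other genes, among them the pseudogene Trp53-ps.

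Mdm2, the gene of the ligase that degrades p53 and itself a p53 target, was highest in reporter-positive cells. After transfer it ran from 0 through a median of 8.27 to 93.7 TPM. Reporter-positive cells ran from 0 through 13.5 to 1378 TPM, CD44+ cells from 0 through 5.05 to 49.9 TPM, CD44-negative α6+ cells from 0 through 1.34 to 65.8 TPM and α6-negative cells from 0 through 5.35 to 70.1 TPM. Mdm2 was found in 83.6% of cells after transfer (77.3 to 88.7%), in 88.6% of the reporter-positive ones (80.9 to 94%) and in 54.95% of those that were CD44-negative and α6+ (44.2 to 65.4%). A single library carried much of the reporter-positive mean, which was 32.2 TPM with it and 19.3 TPM without it. With it Mdm2 was 2.67-fold higher than in CD44+ cells, 4.56-fold higher than in CD44-negative α6+ cells and 2.27-fold lower after transfer. Without it the log2 ratios were 0.71, 1.48 and -0.47, so of these 3 calls the one against CD44-negative α6+ cells was still past 2-fold.

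Sesn2 encodes a stress-induced sestrin that restrains mTORC1. Its detection was 68.9% after transfer (61.5 to 75.7%) and 81.9% among reporter-positive cells (73.2 to 88.7%), against 46.7% of CD44+ cells (21.3 to 73.4%), 42.9% of CD44-negative α6+ cells (32.5 to 53.7%) and 30.2% of α6-negative cells (17.2 to 46.1%). Means were 5.82, 6.75, 1.79, 2.28 and 3.74 TPM in the same order. Its log2 ratio was 1.48 in reporter-positive over CD44+ cells, 1.24 over CD44-negative α6+ cells, and 1.05 after transfer over CD44-negative α6+ cells. Gadd45a, which encodes a growth-arrest protein also induced by DNA damage, was detected in 22% of cells after transfer, 35.2% of reporter-positive cells, 20% of CD44+ cells, 25.3% of CD44-negative α6+ cells and 13.95% of α6-negative cells. Its intervals overlapped between all gates, so no order could be read at this depth. Of its exonic bases, 19.1% overlap E230016M11Rik on the other strand.

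Counted together, reporter-positive cells had more of these transcripts than either reporter-negative α6+ gate. A gene was counted as higher or lower when mean TPM plus 1 differed at least 2-fold and 1 gate had a mean of at least 1 TPM. Against CD44+ cells, 5 of 9 members tested were higher in reporter-positive cells (Cdkn1a, Cdkn2a, Cdkn2b, Mdm2 and Sesn2) and 1 was lower. Over all 12928 genes tested the shares were 12.6% higher and 16.5% lower. Against CD44-negative α6+ cells the same 5 of 9 were higher and 0 lower, where 9.8% of genes were higher and 4.78% lower. Cdkn1a, Cdkn2a, Cdkn2b and Mdm2 stayed past 2-fold over CD44-negative α6+ cells in all 23 settings tried, at log2 ratios of 1.54 to 2.39, 1.09 to 2.76, 1.45 to 2.88 and 1.33 to 2.58. Sesn2 did so in 20 of 23 settings. Several of the settings could not alter these ratios, such as leaving out plate OT2 or OT_B or changing the limit of detection. When TPM was rescaled without spike-in, ribosomal and mitochondrial entries, the split was 5 higher and 2 lower against CD44+ cells, and 6 higher and 1 lower against CD44-negative α6+ cells.

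The 2 reporter-negative α6+ gates did not separate on these genes. In CD44+ over CD44-negative α6+ cells 0 of 9 members were higher and 0 lower, where 16.8% of all genes were higher and 6.18% lower. The member log2 ratios lay between -0.46 for Cdkn2a and 0.77 for Mdm2. With 15 cells in the CD44+ gate, differences of this size could not be resolved. In CD44-negative α6+ over α6-negative cells 0 of 9 were higher and 1 was lower, Cdkn2b at a log2 ratio of -1.48, where 8.66% of all genes were higher and 25.7% lower. Cdkn1b fell just short of the limit at -0.997. The α6-negative gate held several cell kinds, and the members differed among them. Cdkn1a was detected in 25 of its 26 keratinocyte-led libraries (mean 214.9 TPM), in 6 of 13 fibroblast-led ones (mean 20.4 TPM) and in 0 of 4 pericyte- or muscle-led ones. Cdkn2a was in 0 of 26, 4 of 13 and 0 of 4 of the same libraries, and Cdkn1b in 16, 12 and 3. With keratinocyte-led libraries alone, Cdkn1a joined Cdkn2b as lower in CD44-negative α6+ cells (log2 ratios -1.54 and -1.89), and Cdkn2a was higher (1.73). Rescaled TPM gave 0 higher and 3 lower.

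After transfer the set was lower than in reporter-positive cells at several members and close to it at others. Of 8 members tested 0 were higher and 3 lower (Cdkn2a -2.12, Cdkn2b -1.37 and Mdm2 -1.19), where 3.17% of all genes were higher and 8.6% lower. Cdkn1a stood at -0.74, Trp53 at -0.85 and Sesn2 at -0.18. Leaving out plate OT2 moved Cdkn1a to -1.09, for 4 lower. With every library as labelled, only Cdkn2a stayed past the limit (-1.25), and Cdkn2b and Mdm2 stood at -0.90 and -0.87. Rescaled TPM gave 0 higher and 5 lower, with Cdkn1c and Trp53 added, while the median of all genes moved by -0.15. Against CD44-negative α6+ cells, 4 of 9 members were higher after transfer (Cdkn1a 1.14, Cdkn2b 1.12, Sesn2 1.05 and Mdm2 1.002) and 0 lower, where 3.91% of genes were higher and 4.71% lower. These comparisons share samples. Mdm2 was just past the limit. With every library as labelled, Cdkn2a was also past it (1.14), and Cdkn2b stood at 1.59. Rescaled TPM gave 0 higher and 2 lower, with Cdkn1a at 0.84, Cdkn2b at 0.85, Sesn2 at 0.93 and Trp53 at -1.20, and the median of all genes moved by -0.26. Without plate OT2 the split was 1 higher and 1 lower. With Yam1, Gm15662 and Gm26917 also removed before rescaling, a setting chosen after seeing the data, 4 were higher again, with Cdkn1a at 1.21, Cdkn2b at 1.19, Mdm2 at 1.15 and Sesn2 at 1.29. Against the CD44-negative α6+ libraries with Xist 1 was higher, and 2 were higher with at least 4000 genes, with 6000 to 8000 genes or with second libraries.

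**Figure D3:**
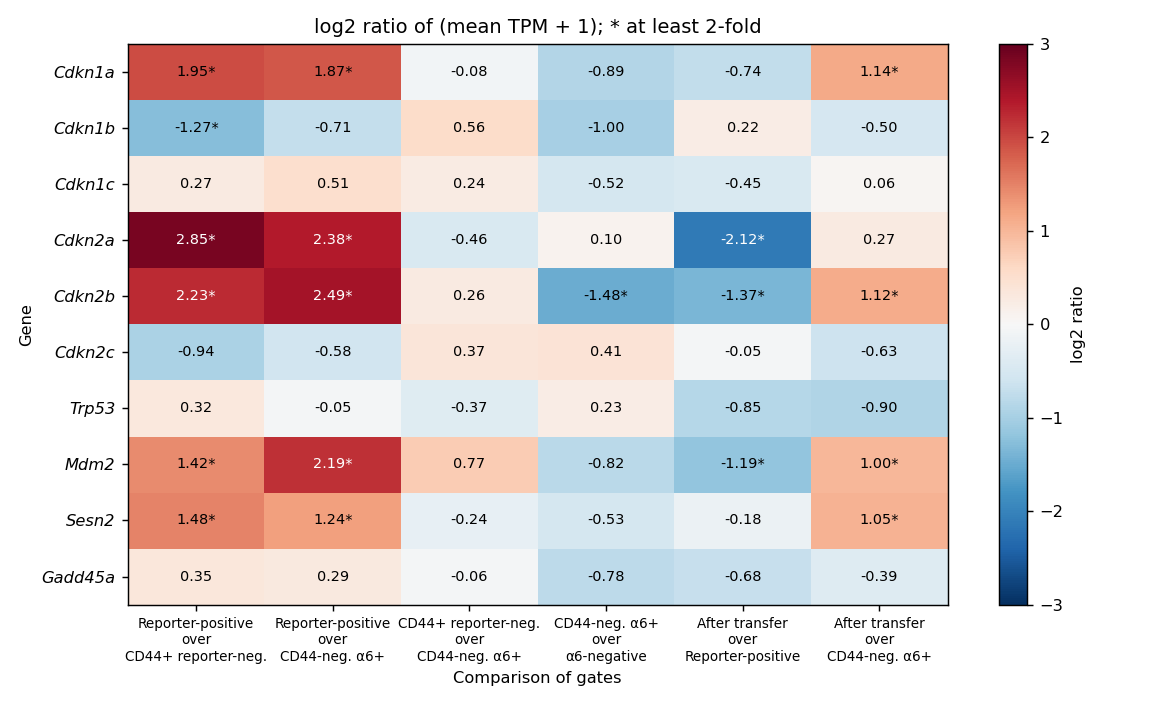
Log2 ratios of mean TPM plus 1 for the 10 genes (rows) in the 6 comparisons of gates (columns), with an asterisk where the ratio reached 2-fold. Cdkn1a, Cdkn2a, Cdkn2b, Mdm2 and Sesn2 are marked in both columns of reporter-positive cells over reporter-negative α6+ cells.

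Mki67, a marker of cells in cycle, was at 1 TPM or more in 52 cells after transfer (29.4%), 24 reporter-positive cells (22.9%), 13 of 15 CD44+ cells, 46 of 91 CD44-negative α6+ cells and 5 of 43 α6-negative cells. The split was compared within the 3 gates that had at least 20 cells on each side. Median gene numbers with and without Mki67 were 6942 and 6466 after transfer, 7744 and 7760 in reporter-positive cells, and 7179 and 6426 in CD44-negative α6+ cells. All 14 genes of a G2/M list were at least 2-fold higher with Mki67 in each gate, as the choice of marker implies.

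Cdkn1a was lower in Mki67-positive cells of all 3 gates. After transfer the median was 87.1 TPM with Mki67 and 122.3 TPM without, and the means were 103.4 and 185.8 TPM (log2 ratio -0.84). In reporter-positive cells the quartiles were 83 and 236.7 TPM with Mki67 and 160.8 and 392.5 TPM without, and the means 166.8 and 300.4 TPM (-0.85). In CD44-negative α6+ cells the medians were 26.2 and 75.6 TPM and the means 45.9 and 100.7 TPM (-1.12). Cells with and without Mki67 overlapped throughout, and nearly all Mki67-positive cells had Cdkn1a, at 96.2% after transfer (50 of 52), 100% of reporter-positive cells (24 of 24) and 89.1% of CD44-negative α6+ cells (41 of 46). The difference was one of level rather than of presence. With the cells of each gate ranked by Cdkn1a and cut into 4 bins, low to high, Mki67 was found in 33.3, 43.2, 25 and 15.9% of cells after transfer. In reporter-positive cells the shares were 44.4, 19.2, 19.2 and 7.69%, and in CD44-negative α6+ cells 60.9, 78.3, 40.9 and 21.7%. The top bin had the lowest share in each gate, but in 2 gates the second bin had the highest. Across 23 settings the log2 ratio stayed below 0, at -1.05 to -0.32 after transfer and -1.19 to -0.38 in reporter-positive cells, and at -1.37 to -0.61 across 22 settings in CD44-negative α6+ cells. In each gate some settings could not alter the ratio, such as leaving out a plate of another gate. When Mki67 was read in the cell's second library instead, an alternative added after seeing the data, the ratios were -0.77 after transfer and -1.19 in reporter-positive cells.

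The 2-fold limit was passed by few members within gates. After transfer 0 of 8 members were higher and 0 lower with Mki67, where 5.81% of genes were higher and 3.38% lower. In reporter-positive cells 1 of 9 was higher and 2 lower, where 5.8% were higher and 6.32% lower. In CD44-negative α6+ cells 1 of 9 was higher and 1 lower, where 6.2% were higher and 3.82% lower. This gate pools 42 libraries with Xist alone and 44 with Y-linked transcripts alone. Mki67 was in 38.1% of those with Xist and 61.4% of those with Y-linked transcripts, Cdkn1a in 97.6% and 79.5%, and Cdkn2c in 19.05% and 36.4%. Their part in the Mki67 split was not tested.

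In reporter-positive cells both INK4 neighbours were lower with Mki67. Cdkn2a had medians of 2.43 TPM with Mki67 and 11.7 TPM without, and means of 6.56 and 19.1 TPM (log2 ratio -1.41). It was detected in 66.7% of cells with Mki67 (44.7 to 84.4%) and 80.3% of cells without (69.9 to 88.3%), and these intervals overlap. Cdkn2b had medians of 14.04 and 25.1 TPM and means of 14.7 and 33.4 TPM (-1.13). Among libraries of 6000 to 8000 genes the ratios were -0.68 for Cdkn2a and -0.71 for Cdkn2b, and with Top2a in place of Mki67 they were -0.86 and -0.46. After transfer the ratios were -0.47 for Cdkn2a and -0.19 for Cdkn2b, and in CD44-negative α6+ cells -0.41 and -0.55. In the CD44-negative α6+ gate Cdkn2a ran from -1.36 to 1.05 between settings, so no direction can be given. The α6-negative gate, with 5 Mki67-positive cells, was not compared. Cdkn2a was in 3 of those 5 cells and in 1 of the other 38. All of these libraries with Cdkn2a were fibroblast-led (4 of 13), and 0 of 26 keratinocyte-led libraries of the gate had it.

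Cdkn2c and Gadd45a went the other way where they differed. Cdkn2c was detected in 8 of 24 reporter-positive cells with Mki67 (33.3%, 15.6 to 55.3%) and 3 of 81 without (3.70%, 0.770 to 10.4%), at a log2 ratio of 1.15. The ratio was past the limit in 16 of 23 settings, and was 0.86 with Top2a as the marker, 0.71 with at least 3 of 14 G2/M genes and 0.21 with a pseudocount of 10 TPM. Some of these settings, such as those without a plate of cells after transfer, could not alter it. In CD44-negative α6+ cells the shares were 39.1% with Mki67 (25.1 to 54.6%) and 15.6% without (6.49 to 29.5%), and after transfer 19.2% (9.63 to 32.5%) and 11.2% (6.26 to 18.1%). Intervals were apart in the reporter-positive gate and overlapped in the others. For this split, the share of all genes with intervals apart was not computed. Gadd45a was in 19 of 46 CD44-negative α6+ cells with Mki67 (41.3%, 27 to 56.8%) and 4 of 45 without (8.89%, 2.48 to 21.2%), at a ratio of 1.61. Its ratios were 0.27 in reporter-positive cells and 0.25 after transfer. With Top2a as the marker the CD44-negative α6+ ratio was 0.70. Cdkn1b was detected in 79.2% of reporter-positive cells with Mki67 (57.8 to 92.9%) and 39.5% without (28.8 to 51%), a ratio of 0.80, but in 55.8% and 46.4% of cells after transfer and 71.7% and 71.1% of CD44-negative α6+ cells. Trp53 ratios were 0.45 after transfer, 0.35 in reporter-positive and 0.38 in CD44-negative α6+ cells, and after transfer it was detected in 98.1% of cells with Mki67 (89.7 to 100%) and 83.2% without (75.5 to 89.3%). Both genes were detected more often in libraries with more genes. After transfer Trp53 was in 61.4% of libraries below 6000 genes and 96% of those with 6000 to 8000, and Mki67 in 9.09% and 34.7%. Among libraries of 6000 to 8000 genes the Trp53 ratio after transfer was 0.08. Ratios of Mdm2 and Sesn2 lay between -0.76 and 0.04. The lowest of these, Mdm2 in reporter-positive cells, was 0.12 without the library that had the highest Mdm2.

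**Figure D4:**
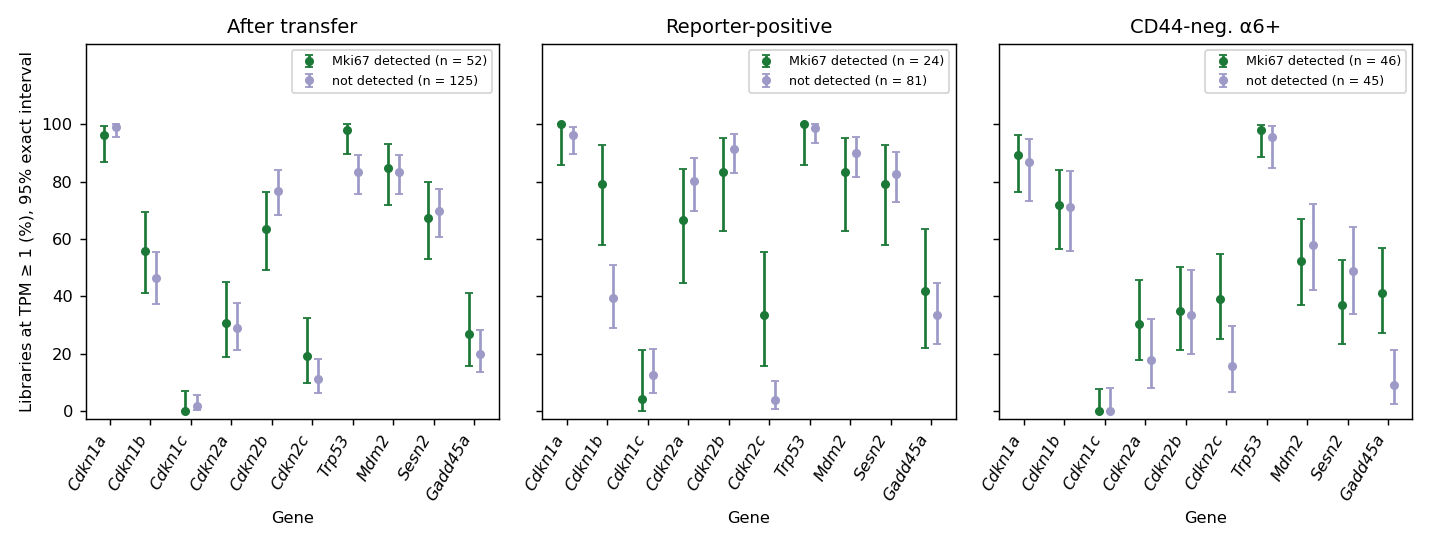
Share of cells with each of the 10 genes at 1 TPM or more (percent, exact 95% intervals), for cells with and without Mki67 after transfer, in reporter-positive cells and in CD44-negative α6+ cells. The intervals are apart for Trp53 after transfer, for Cdkn1b and Cdkn2c in reporter-positive cells and for Gadd45a in CD44-negative α6+ cells. The share of all genes with intervals apart was not computed, and cells were not matched for gene number. Among libraries of 6000 to 8000 genes the log2 ratio of Trp53 after transfer was 0.08.

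Across cells the members were only loosely tied to each other. Spearman rho between Cdkn2a and Cdkn2b was 0.24 over the cells after transfer, 0.48 over the reporter-positive cells and 0.41 over the CD44-negative α6+ cells counted above. Between Cdkn1a and Mki67 it was -0.26, -0.27 and -0.34 in the same gates, and between Cdkn1a and Trp53 -0.23, -0.15 and -0.26. Cdkn1a and Mdm2 stood at 0.14, 0.26 and 0.11. Values of this size, with Mki67 and Trp53 as well, are too weak to be read alone in sparse counts. Among 9060 genes compared in all 3 gates, those most like Cdkn1a were Sat1, a polyamine-catabolising enzyme (0.44, 0.50 and 0.43), and Hbegf, a ligand of the EGF receptor (0.54, 0.37 and 0.52), with Kctd11, Hspb1 and Zfp36. Those most unlike it were Tubb5, a tubulin (-0.31, -0.34 and -0.46), Tk1, the S-phase thymidine kinase (-0.30, -0.31 and -0.40), and Hmgb1. For Cdkn2b the list of 5 most alike was Galnt6, Qsox1, Laptm4a, Cdkn2a and 1810011O10Rik. Cells of a gate share plates and differ in gene number, and these values carry no test.

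A reporter-positive library of plate CSC1, singled out after its values were seen, combined the highest Mdm2 and the highest Cdkn1a of the gate. Mdm2 was at 1378 TPM there and at 1233 TPM in its paired library on plate OT_C, while the other reporter-positive libraries reached at most 89.9 TPM. Cdkn1a was at 1549 TPM, with 1852 TPM in the second library, against at most 904 TPM in the others. Sesn2 was at 42.9 and 39.3 TPM in the pair of libraries, against at most 32.97 TPM. Trp53 was unremarkable, at 39.97 TPM and rank 48 in the gate. Of 22 further p53 target genes, 15 were above the 90th percentile of the other libraries of the gate. The next highest reporter-positive library had 12 and the median library 2. The library had 8705 genes at 1 TPM, against a gate median of 7760. The share of all its genes above that percentile was not computed, and how far gene number enters these counts was not tested. The death receptor gene Fas stood at 134.2 TPM, against at most 22.1 TPM elsewhere in the gate, and the antiproliferative gene Btg2 at 503.5 TPM against at most 91.8 TPM. Pmaip1, which encodes the pro-apoptotic protein Noxa, and Zmat3, an RNA-binding p53 target, also had their highest values there, at 70.3 and 43.6 TPM. Not all targets took part, as Bax was at 7.12 TPM and Gdf15, Sesn1, Ddb2 and Bbc3 were at 0. Mki67 and Cdkn1b were at 0, and Cdkn2a was at 0 in one library and 7.03 TPM in the other. Of the 4 genes next to Mdm2 on chromosome 10, 3 were above the 90th percentile of the other libraries, again with no share over all genes to set beside it. Cpm was at 8.20 TPM and rank 1 (at most 6.84 TPM in the others), Rap1b at 73.8 TPM and rank 4 (at most 78.8 TPM) and Slc35e3 at 6.01 TPM and rank 7 (at most 9.53 TPM), while Nup107 was at 0.85 TPM and rank 56.

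**Figure D5:**
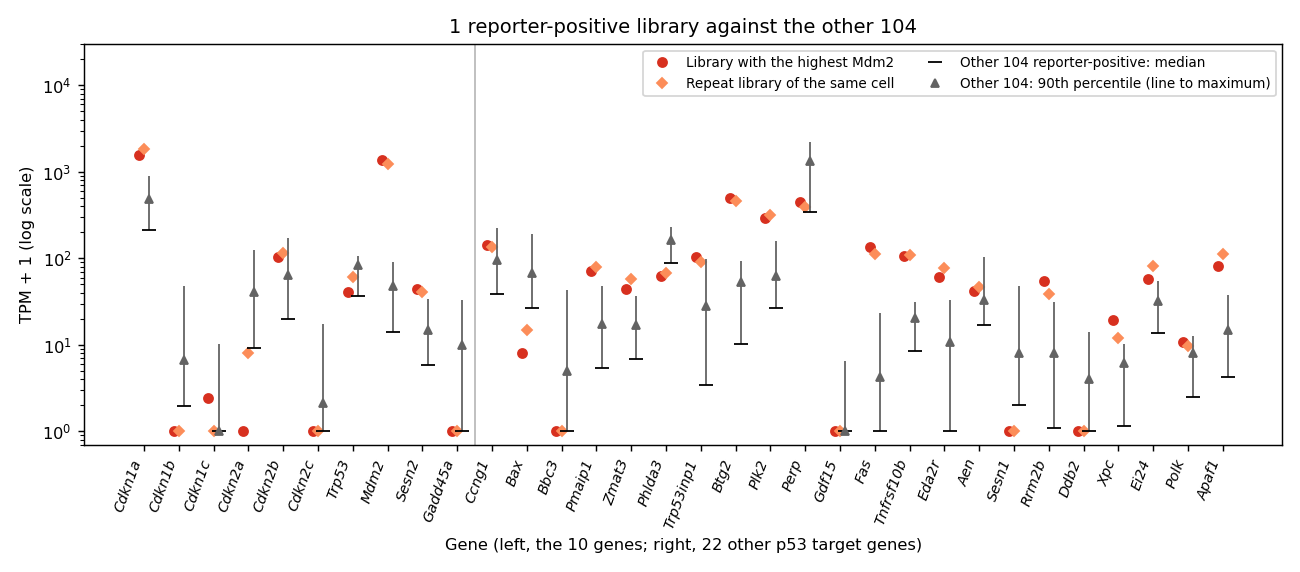
TPM plus 1 (log axis) of the 10 genes and 22 p53 targets in the reporter-positive library with the highest Mdm2 (circles) and in its second library (diamonds). Bars and triangles are the median and 90th percentile of the other reporter-positive libraries, with lines to their highest value. Mdm2, Fas and Btg2 lie above every other library, at 1378, 134.2 and 503.5 TPM.

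Outside the 10 genes, the lists of the same pathway gave the following. Of the 22 p53 targets, 8 of 21 tested were higher and 2 lower in reporter-positive over CD44+ cells, and 6 of 21 higher and 0 lower over CD44-negative α6+ cells. The higher ones over CD44-negative α6+ cells included Ccng1 (48.2 against 11.7 TPM, log2 ratio 1.95), a cyclin-like gene. They also included the death receptor gene Tnfrsf10b (9.45 against 2.06 TPM, 1.77) and the receptor gene Eda2r (3.68 against 0.602 TPM, 1.55). After transfer 0 of 20 were higher and 6 lower than in reporter-positive cells, among them Tnfrsf10b (-1.77), Ccng1 (-1.57) and Eda2r (-1.48). The list's median log2 ratio was 0.71, 0.61 and -0.55 in these 3 comparisons, beside -0.03, 0.07 and -0.22 over all genes tested. The shares of all genes that were higher and lower were 12.6% and 16.5%, 9.8% and 4.78%, and 3.17% and 8.6% in the same order. In the list of the p53 family and its regulators, 0 of 10 passed 2-fold in any of the 3. Of the 6 other inhibitors and relatives, 0 were higher and 3 lower in reporter-positive over CD44+ cells. These were Cdkn2d, an INK4 inhibitor (-2.03), Gadd45g (-1.55) and Gadd45b (-1.14).

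The partners of the inhibitors did not move as a block. Among 11 cyclins and kinases, 2 were higher and 4 lower in reporter-positive over CD44+ cells, and 2 were higher and 2 lower over CD44-negative α6+ cells. Over all genes tested, 12.6% were higher and 16.5% lower in the first comparison, and 9.8% and 4.78% in the second. After transfer over reporter-positive cells the shares were 3.17% and 8.6%. Ccnd1 and Ccnd2, the D cyclins that pair with CDK4 and CDK6, averaged 93.2 and 115.8 TPM in reporter-positive cells, against 32.4 and 27.8 TPM in CD44-negative α6+ cells (log2 ratios 1.5 and 2.02). After transfer they averaged 31.5 and 24.3 TPM (-1.54 and -2.21 over reporter-positive cells). Of 14 G2/M genes 13 were lower in reporter-positive than in CD44+ cells, 5 were lower than in CD44-negative α6+ cells, and 0 differed after transfer over reporter-positive cells. Of 12 S-phase genes 2, 6 and 0 were lower in the same comparisons. In the RB and E2F list 1 of 11 was lower in the first, no more than the share of all genes, and 0 differed in the second. In the integrated stress response list, which can also raise Sesn2, 1 of 10 was higher and 1 lower in the first, and 2 were higher and 1 lower in the second. Whether the share of cycling cells accounts for differences between gates was not tested.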

How the data were processed

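Values were TPM per gene and library, deposited by the authors in 1 table before therapy and 1 after it. Per the submitters' processing notes, the tools were Bowtie2 2.2.9 and RSEM 1.2.30 on mm10. The treatment of multi-mapping reads and of spike-ins is not stated in what was used here. In 17 columns all TPM lay in 1 entry, and these were not used. Gates came from the labels and plates from the column names. A transcript counted as detected at 1 TPM. Folds are ratios of mean TPM after adding 1, which understates changes of weakly expressed genes. Called genes differed at least 2-fold, with a mean of at least 1 TPM in 1 gate. Depth is unknown in TPM. Ribosomal entries, here counted together with Yam1, Gm15662, Gm26917 and Lars2, took a median of 71.5 to 75.1% of each gate's TPM. The rescaling without ribosomal entries kept Yam1, Gm15662 and Gm26917, which only the further rescaling removed. Libraries of 1 cell were paired by Pearson r of log2(TPM + 1). The fold calls, the rank correlation and the intervals were tried on simulated data, and the pairing was not. The members and gene lists were chosen with earlier results of these data known. Named genes were all members, the genes of each list past 2-fold with the largest ratios (at most 3 a list), and the most alike and most unlike genes by Spearman rho. The p53 targets and neighbouring genes named for the library with the highest Mdm2 were outside this rule. That library was singled out after its values were seen. Gene coordinates came from the mm10 annotation, where 46005 of 46517 identifiers matched. Alternatives varied the pseudocount, filters, scale, plates, repeat libraries, cell kinds and the marker of cycling. Python 3.11.15, numpy 2.4.6, pandas 2.3.3, scipy 1.17.1 and matplotlib 3.10.9 were used. Results of the TGF-beta gene list are not reported here.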

Additional observations from a re-analysis of the deposited data

How the results depend on the processing

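No ratio past the 2-fold limit went past it the other way under an alternative, but ratios short of it did change direction: Gadd45a in CD44-negative α6+ over α6-negative cells stood at -0.78, and at 1.86 with 6000 to 8000 genes, and Cdkn2a by Mki67 in CD44-negative α6+ cells at -0.41, at 1.05 rescaled, at 1.04 with the further rescaling and at -1.36 with Mki67 at 10 TPM or more. Of the counts of called members under alternatives, all but 47 were within 1.5 times the main count. Of 1340 log2 ratios between gates 1250 stayed on their side of the limit. Those that stayed include ratios short of the limit that changed direction, and many that could not change. The limit of detection does not enter ratios between gates, and leaving out a plate alters only comparisons that use it. The same holds for the counts of called members, so neither number measures stability by itself. No paired analysis was possible because each gate is 1 sample and the labels pair no libraries across gates. The counts that moved were these, and the cause was not tested unless the setting itself gives it. With a pseudocount of 0.1 TPM the members lower were 2 in reporter-positive over CD44+ cells, 1 in reporter-positive over CD44-negative α6+ cells, 2 in CD44-negative α6+ over α6-negative cells and 1 after transfer over CD44-negative α6+ cells. With 10 TPM, 3 were higher and 0 lower in the first of these, 0 lower in the third, 1 higher after transfer over CD44-negative α6+ cells and 1 lower over reporter-positive cells. Means of log2(TPM + 1) gave 1 higher in CD44-negative α6+ over α6-negative cells and 1 lower after transfer over CD44-negative α6+ cells. With no minimum of genes, 0 were lower in reporter-positive over CD44+ cells, 1 lower in CD44+ over CD44-negative α6+ cells, 1 higher and 2 lower against α6-negative cells, and 1 lower after transfer in each comparison. A higher minimum of genes, 4000, gave 2 lower against CD44+ cells, 1 higher and 2 lower against α6-negative cells, and 2 higher after transfer over CD44-negative α6+ cells. With 6000 to 8000 genes the same comparisons gave 2 lower, 2 higher and 2 higher. Rescaled TPM gave 2 lower in reporter-positive over CD44+ cells, 1 lower over CD44-negative α6+ cells, 3 lower against α6-negative cells, 5 lower after transfer over reporter-positive cells, and 0 higher and 2 lower over CD44-negative α6+ cells. A rescaling chosen after seeing the data, also without Yam1, Gm15662 and Gm26917, gave 2, 1, 4 and 1 lower in the same comparisons other than after transfer over reporter-positive cells. Leaving out plate CSC1 gave 0 lower against CD44+ cells and leaving out CSC2 gave 2. Leaving out plate OT2 gave 1 higher and 1 lower after transfer over CD44-negative α6+ cells. Second libraries in place of first ones gave 2 higher there, and all libraries as labelled gave 1 lower after transfer over reporter-positive cells. Averaging paired libraries within a gate gave 2 lower against α6-negative cells, and keratinocyte-led libraries gave 1 higher and 2 lower. With the CD44-negative α6+ libraries that had Xist, 1 was higher after transfer, and with those that had Y-linked transcripts 1 was lower after transfer, 1 higher in CD44+ cells and 2 lower against α6-negative cells.

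For Cdkn1a with and without Mki67, the log2 ratio in CD44-negative α6+ cells fell short of the limit in several settings. It was -0.98 with a pseudocount of 10 TPM, -0.84 on means of log2 values, -0.97 with no minimum of genes, -0.61 with 6000 to 8000 genes, -0.72 rescaled, -0.81 with the further rescaling, -0.95 with detection above 0 TPM, -0.66 with Top2a and -0.86 with at least 3 of 14 G2/M genes. It went past the limit in reporter-positive cells with second libraries (-1.18), with Mki67 at 10 TPM or more (-1.14) and with Mki67 read in the second library (-1.19), and after transfer with all libraries as labelled (-1.05). TPM gives no depth, so limits by depth were not ranked between members.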
